A study of Mus musculus with 14 samples.

Results

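The comparison described here set regulatory T cells (Tregs) of lymph nodes against Tregs of the spleen in mice, with 4 RNA-seq libraries from each organ, which are 8 of the 14 libraries of the series. The libraries were chosen by their labels alone, and the genes compared were all those with at least 1 FPKM (fragments per kilobase of transcript, scaled to the mapped total of the library) in 3 or more of the 8 libraries, 9053 of the 22255 genes in the table. All 8 libraries carry the genotype label WT (Foxp3-YFP+), come from the strain FoxP3-YFPCre+/+ and were made from mice 8 weeks old, so lymph node and spleen Tregs alike carry the Foxp3-driven YFP-Cre allele. The other libraries of the series came from Tregs of Yumm1.7 melanomas, a transplantable mouse melanoma line, in the same strain or in mice with Cd36 deleted in Foxp3-expressing cells. Low-input total RNA was turned into libraries with the Smart-Seq2 protocol, which amplifies full-length cDNA from few cells. The labels name neither the lymph nodes taken nor the number of mice, and do not say whether replicates came from separate animals, so the p-values measure the spread between these libraries, which may be technical.

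Tregs are CD4 T cells that restrain immune responses and depend on the transcription factor Foxp3. Resting, or central, Tregs recirculate between blood, spleen and lymph nodes and need homing receptors such as CCR7 to enter nodes, while effector Tregs have met antigen, make more inhibitory molecules and enter other tissues. A lymph node filters lymph, whereas the spleen filters blood, and its red pulp is rich in macrophages that clear red blood cells, with B cell follicles close to its T cell zones.

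Both sets of libraries held the transcripts that define Tregs. Foxp3, the lineage factor, stood at 32.3, 23.6, 15.4 and 25.4 FPKM in lymph node and 21.1, 16.9, 27.8 and 8.67 FPKM in spleen, which overlapped, with a difference (lymph node minus spleen, on the log2(FPKM + 1) scale) of 0.42 ± 0.45 (SE, adjusted p = 0.782). Of the genes of a Treg core list, 21 were tested, and of a T cell identity list 19. None of these passed an adjusted p of 0.05 in limma in either direction, and their medians of 0.20 and 0.05 lay near the median of 0.02 over all genes tested. At an unadjusted p of 0.05, 5 Treg core genes were higher in lymph node and 1 was lower, against 6.70% and 5.49% of all genes tested. Of the T cell identity genes, 2 were higher and 2 lower at this p. Without overlap, 3 Treg core genes were higher and 1 lower, and 2 T cell identity genes higher and 3 lower. Of all genes tested, 8.16% did not overlap. Cd3e, among these 3, stood at 52.5, 46.7, 63.7 and 67.3 FPKM in lymph node and 95.1, 109, 114 and 139 FPKM in spleen. It differed by -0.98 ± 0.25 (SE, adjusted p = 0.132). Cd36, the fatty acid receptor that the study deletes in Tregs, was listed at 0 in all 4 lymph node libraries and at 0, 0.598, 4.47 and 2.17 FPKM in the spleen libraries. It was too low to enter the fit across genes, and an exact two-sided permutation test gave p = 0.143.

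The depth estimated from the steps between low FPKM values was about 18400000 to 21400000 reads in lymph node and 12200000 to 27600000 in spleen, so that 3 reads over 1 kb correspond to 0.14 to 0.163 FPKM and 0.109 to 0.245 FPKM. An entry of 0 is not always an absent transcript here, since mt-Co2 and mt-Atp6, which every cell uses, were listed at 0 in all 8 libraries. The spleen libraries varied more. Across genes within pairs of libraries, r was 0.834 to 0.845 among lymph node, 0.75 to 0.785 among spleen and 0.747 to 0.799 between the organs, and 5937 genes had the larger SD in spleen against 3116 in lymph node. Of the 4005 genes with a mean of 10 FPKM or more, 24 to 31 were listed at 0 in a lymph node library and 33 to 55 in a spleen library. The part of these differences in depth and spread in the results below was not tested.

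Of the 9053 genes tested, 4643 had a positive difference and 4410 a negative one. At an adjusted p of 0.05, 55 genes differed, 0.608% of those tested. In lymph node Tregs 21 were higher (0.232%) and 34 lower (0.376%), and the organs' values did not overlap for any of the 55, as for 8.16% of all genes tested. A gene below 1 FPKM throughout an organ could enter only by being high in the other, so the filter itself favoured non-overlap. That was so for 92 tested genes in lymph node (6 called, among them Fcer1g, C1qa, Mpeg1, Fcna and Ctsh). For spleen it was so for 125 (3 called, among them Trbv17 and Trbv29). Of the 34 lower genes, 16 belonged to lists of markers of macrophages, B cells and red blood cells, as did 0 of the 21 higher genes. Those lists held 13, 15 and 6 of the 9053 genes tested. They were drawn up with earlier results of these data known. The other 18 lower genes included Ccl5, Hsp90aa1, Actb, small and mitochondrial RNAs and 2 T cell receptor segments. The higher genes included 5 T cell receptor segments, the abundant mRNAs of Tmsb4x, Cd52, Eef1a1, Rps7 and mt-Co1, and 2 genes of the signal peptidase, Spcs1 and Sec11a.

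**Figure D1:**
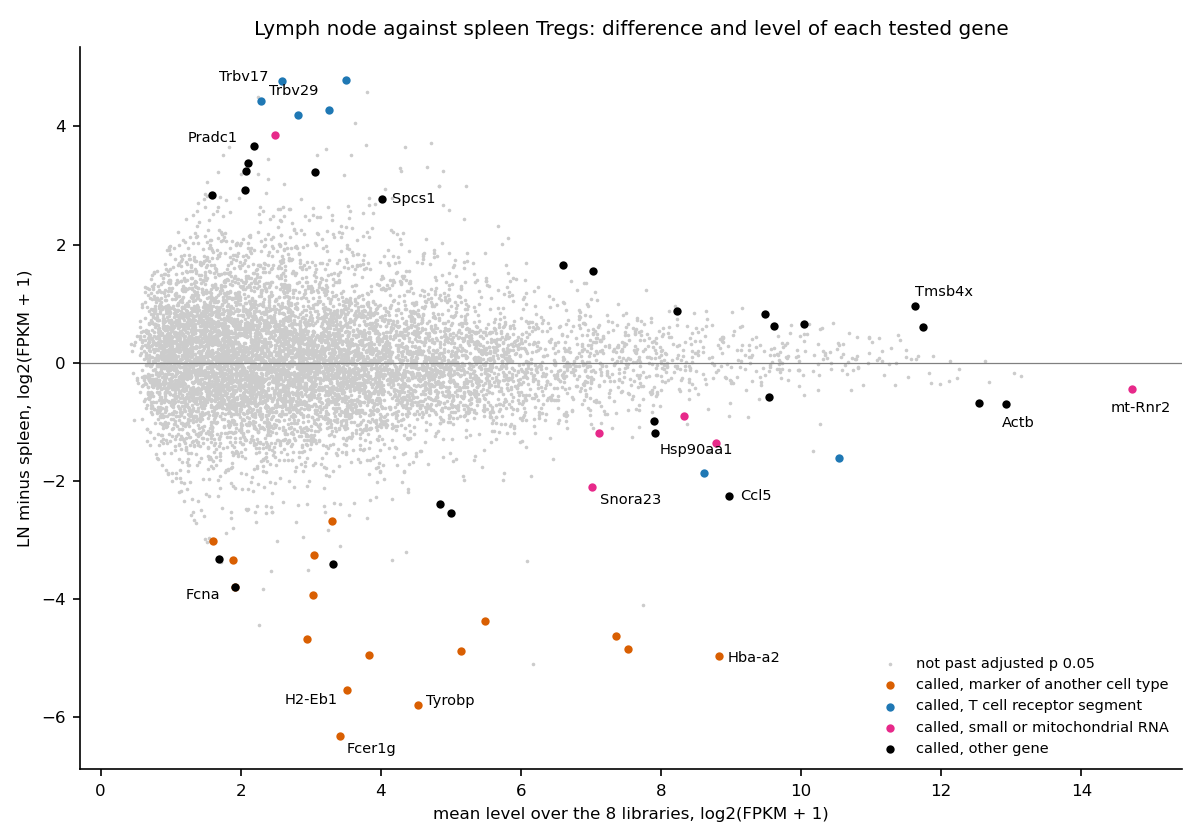
Difference between lymph node and spleen Tregs (vertical axis, lymph node minus spleen, log2(FPKM + 1)) against the mean level over the 8 libraries (horizontal axis, log2(FPKM + 1)), one point for each of the 9053 genes tested. Coloured points are the 55 genes past an adjusted p of 0.05. The markers of other cell types (orange) all lie below 0, Fcer1g lowest at -6.33, and 5 of the 7 T cell receptor segments (blue) lie above 4.

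The calls rested on few libraries. With any 1 of the 8 libraries left out, 12 of the 55 genes passed in every one of the 8 fits, and 43 missed the threshold in at least 1. The 12 were Fcer1g, Tyrobp, H2-Eb1, Hba-a2, Fcna, Snora23, mt-Rnr2, Rps21 and Actb, all lower in lymph node, and Tmsb4x, Trbv17 and Trbv29, all higher. In none of the 18 alternative fits did a called gene change sign. The highest adjusted p of any of the 55 with 1 library left out was 0.153. For each group below, the genes that kept their call whichever 1 library was left out are named, and for the others described the library or libraries without which the call was kept are given.

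The largest differences were in genes of macrophages and monocytes, which were at or near 0 in most lymph node libraries and present in all spleen libraries. Fcer1g, the signalling gamma chain of Fc receptors, was at 0.125, 0.132, 0.186 and 0.364 FPKM in lymph node and 228, 96.4, 81.4 and 45.8 FPKM in spleen. The log2 difference was -6.33 ± 0.54 (SE, adjusted p = 0.000803). Tyrobp, the adaptor DAP12 of myeloid and NK cell receptors, was at 6.57, 0.0875, 1.07 and 4.35 FPKM in lymph node and 216, 201, 150.2 and 131 FPKM in spleen. It differed by -5.80 ± 0.58 (SE, adjusted p = 0.00242). No lymph node library came near the lowest spleen library for either gene, and both calls were kept in all 18 alternative fits.

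Apoe, a lipid carrier that macrophages secrete, was at 0.204, 2.5, 0.0506 and 0.208 FPKM in lymph node and 36.4, 106, 38.4 and 13.4 FPKM in spleen, with a difference of -4.67 ± 0.68 (SE, adjusted p = 0.0143), and its adjusted p without lymph node replicate 3 was 0.0565. C1qb, a chain of the complement protein C1q, was at 0.173, 24.5, 0.171 and 0.2 FPKM in lymph node and 134, 121, 42.4 and 53.9 FPKM in spleen. The difference was -4.96 ± 0.93 (SE, adjusted p = 0.0472). A single lymph node library, replicate 2, held C1qb at a level within reach of spleen, and the call was kept only with that library left out. C1qa, the partner chain, stood at 0, 0, 0.849 and 0 FPKM in lymph node and 7.58, 18.9, 6.69 and 13.8 FPKM in spleen and differed by -3.34 ± 0.57 (SE, adjusted p = 0.0405). Mpeg1, the pore-forming perforin-2 of phagocytes, stood at 0.0108, 0.0228, 0 and 0 FPKM in lymph node and 22.7, 22.7, 2.76 and 17.5 FPKM in spleen and differed by -3.80 ± 0.68 (SE, adjusted p = 0.0453). The calls of C1qa and Mpeg1 were kept only without spleen replicate 3, and the highest adjusted p with a library left out was 0.139 for C1qb, 0.107 for C1qa and 0.112 for Mpeg1.

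Of the 18 listed macrophage and monocyte genes, 13 were tested, 6 passed as lower, 0 as higher, and the median was -3.30. Of all genes tested, 0.376% passed as lower and 0.232% as higher. Members near 0 in lymph node, such as Fcer1g, C1qa and Mpeg1, could be tested only through the spleen libraries. The filter itself thus favoured a negative median over the tested members. A marker score, the mean log2(FPKM + 1) over all 18 genes, ran from 0.69 to 1.51 in the lymph node libraries and from 2.83 to 4.2 in the spleen libraries, with no overlap. The list was uneven within spleen Tregs. Csf1r, the growth factor receptor of macrophages, was at 30.9, 0.915, 0.504 and 3.17 FPKM in the 4 spleen libraries, Adgre1 (F4/80) at 8.55, 0.276, 0.715 and 0 FPKM and Cd14 was listed at 0 in all 8 libraries. Ctss, the lysosomal protease cathepsin S, was at 142, 235, 185 and 251 FPKM in lymph node and 119.7, 162, 159 and 199.8 FPKM in spleen, which overlapped. In these bulk libraries fewer cells of a type and less RNA per cell cannot be told apart.

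A pair of genes outside the lists behaved like these. Fcna, the lectin ficolin A, which spleen and liver macrophages make, was at 0, 0, 0.0338 and 0.0397 FPKM in lymph node and 17.6, 15.9, 13.9 and 7.61 FPKM in spleen. The organs differed by -3.80 ± 0.53 (SE, adjusted p = 0.0118), and its call was kept whichever 1 library was left out. Ctsh, the lysosomal protease cathepsin H, was at 0, 0.0611, 0 and 0 FPKM in lymph node and 11, 5.98, 3.59 and 27.3 FPKM in spleen. It differed by -3.33 ± 0.64 (SE, adjusted p = 0.0482), and passed only without spleen replicate 3 when 1 library was left out. Lymph node Tregs thus had no library above 0.1 FPKM for either gene, and both genes entered the comparison through the spleen libraries alone. Of 13 red pulp macrophage markers 5 were tested and 0 passed in limma, with 0 higher and 1 lower at an unadjusted p of 0.05. Their score ran from 0.47 to 1.03 in the lymph node libraries and from 1.33 to 2.1 in the spleen libraries. Spic, the transcription factor of red pulp macrophages, was at 0.0266, 0, 0 and 0 FPKM in lymph node and 11.7, 0.0461, 0.164 and 22.9 FPKM in spleen, high in spleen replicates 1 and 4 only. Axl was at 34.3, 23.9, 17.4 and 14.8 FPKM in lymph node and 17.6, 25.7, 2.06 and 43.9 FPKM in spleen. Blvrb was at 4.61, 0.175, 2.6 and 21.9 FPKM and 71.7, 18.5, 16.7 and 3.2 FPKM. Both overlapped, and Axl had a positive difference (0.47 ± 0.73, SE, adjusted p = 0.865). None of the 6 markers of lymph node sinus macrophages reached the filter, and Siglec1 was listed at 0 in all 4 lymph node libraries.

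Genes of B cells and of antigen presentation by MHC class II formed the next set. H2-Eb1, a class II beta chain, was at 0.119, 0.542, 0.157 and 2.99 FPKM in lymph node and 137, 59.3, 150.3 and 28.5 FPKM in spleen. The difference was -5.54 ± 0.65 (SE, adjusted p = 0.00576), and its call was kept whichever 1 library was left out. H2-Ab1, the beta chain of I-A, was at 0.62, 45.4, 2.03 and 6.84 FPKM in lymph node and 233, 191, 173 and 175 FPKM in spleen. This gave a difference of -4.89 ± 0.82 (SE, adjusted p = 0.0353). Its alpha chain gene H2-Aa was at 0.332, 6.72, 21.5 and 39.5 FPKM in lymph node and 211, 166, 237 and 205 FPKM in spleen. It differed by -4.37 ± 0.83 (SE, adjusted p = 0.0476). For all 3 chains every lymph node library was below every spleen library, with H2-Ab1 highest in replicate 2 and H2-Aa and H2-Eb1 highest in replicate 4.

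The invariant chain gene Cd74, which escorts class II molecules, was at 2.1, 3.71, 3.43 and 2.67 FPKM in lymph node and 55.9, 15.6, 16.9 and 22.2 FPKM in spleen, and the peptide exchange gene H2-DMb2 differed by -3.94 ± 0.73 (SE, adjusted p = 0.0472). Class II genes are made by B cells, macrophages and dendritic cells alike, so they do not tell these apart. Cd79a, a signalling chain of the B cell receptor, is a B cell marker in the strict sense and was at 4.12, 1.73, 2.07 and 0.187 FPKM in lymph node and 23.9, 35.6, 29.3 and 14.3 FPKM in spleen. The difference was -3.25 ± 0.57 (SE, adjusted p = 0.0447). In the fits that left out 1 library, H2-Ab1 and H2-DMb2 passed only without lymph node replicate 2, H2-Aa without lymph node replicate 1 or 4, Cd79a without lymph node replicate 1 and Cd74 in no fit. Their highest adjusted p was 0.0853 for H2-Ab1, 0.139 for H2-DMb2, 0.129 for H2-Aa, 0.105 for Cd79a and 0.139 for Cd74.

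Of 19 listed B cell genes, 15 were tested and 7 passed as lower and 0 as higher, with a median of -2.67. Of all genes tested, 0.376% passed as lower and 0.232% as higher. The limit that the filter sets on the macrophage median holds here too. The score of the list ran from 1.12 to 1.8 in the lymph node libraries and from 2.71 to 3.91 in the spleen libraries, again without overlap. Cd79b, the second B cell receptor chain, did not follow Cd79a. It was at 53, 41.3, 46.3 and 51.2 FPKM in lymph node and 129, 173, 83.4 and 33.1 FPKM in spleen, with overlap. Dendritic cell markers gave 5 genes tested and 0 called in limma, with 0 higher and 2 lower at an unadjusted p of 0.05. Their score ran from 0.12 to 0.404 in the lymph node libraries and from 0.584 to 1.27 in the spleen libraries, without overlap. Batf3, a factor of cross-presenting dendritic cells, was at 0, 0, 0 and 0.068 FPKM in lymph node and 1.04, 20.4, 1.72 and 5 FPKM in spleen, and Flt3 was listed at 0 in all lymph node libraries and at 3.07 FPKM or less in spleen. Batf3 entered the comparison through the spleen libraries alone.

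Globin mRNAs of red blood cells were the most abundant of these transcripts. Hba-a2, an alpha globin gene, was at 52.3, 49.2, 323 and 49.6 FPKM in lymph node and 1562, 2027, 3682 and 3608 FPKM in spleen. The log2 difference was -4.97 ± 0.54 (SE, adjusted p = 0.00399), and the call was kept whichever 1 library was left out. Its copy Hba-a1 was at 9.87, 20.7, 353 and 15.8 FPKM in lymph node and 934, 432, 1522 and 1571 FPKM in spleen, a difference of -4.85 ± 0.90 (SE, adjusted p = 0.0472), and the beta globin gene Hbb-bs was at 24, 9.91, 352 and 11.2 FPKM in lymph node and 1075, 372, 969.6 and 1110.1 FPKM in spleen. It differed by -4.62 ± 0.91 (SE, adjusted p = 0.0493). Lymph node replicate 3 stood above the other lymph node libraries and below every spleen library for all 3 genes, and Hba-a1 and Hbb-bs passed only without it when 1 library was left out. Their highest adjusted p was 0.129 for Hba-a1 and 0.141 for Hbb-bs. The alpha globin genes share most of their sequence, 92.6% of the 31-base words of Hba-a2 being found in Hba-a1, so the split between them is uncertain. Globins made up 0.0709% of all FPKM on average in lymph node (0.0155% to 0.234%) and 0.957% in spleen (0.527% to 1.31%), with an exact two-sided permutation p of 0.0286, the smallest that 4 against 4 can give, and 0.054 after adjustment over the 17 library measures.

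Of 12 erythroid genes in the table, 6 were tested and 3 passed, all lower, with a median of -4.74. Gata1, the transcription factor of red cell precursors, went the other way in value, at 27.2, 21.5, 7.99 and 52.1 FPKM in lymph node and 10.3, 0.299, 7.54 and 1.33 FPKM in spleen, with overlap. Epor and Klf1, further genes of red cell precursors, were below 1 FPKM in all 8 libraries. Immunoglobulin genes took 0.15% of FPKM on average in lymph node and 0.613% in spleen, with spleen replicate 3 at 1.55% (exact permutation p = 0.0286, adjusted 0.054). Igkc, the kappa light chain constant gene, was at 112, 2.32, 171 and 110.2 FPKM in lymph node and 497, 693, 5963 and 304 FPKM in spleen and did not pass (-4.10 ± 1.20 (SE, adjusted p = 0.173)).

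**Figure D2:**
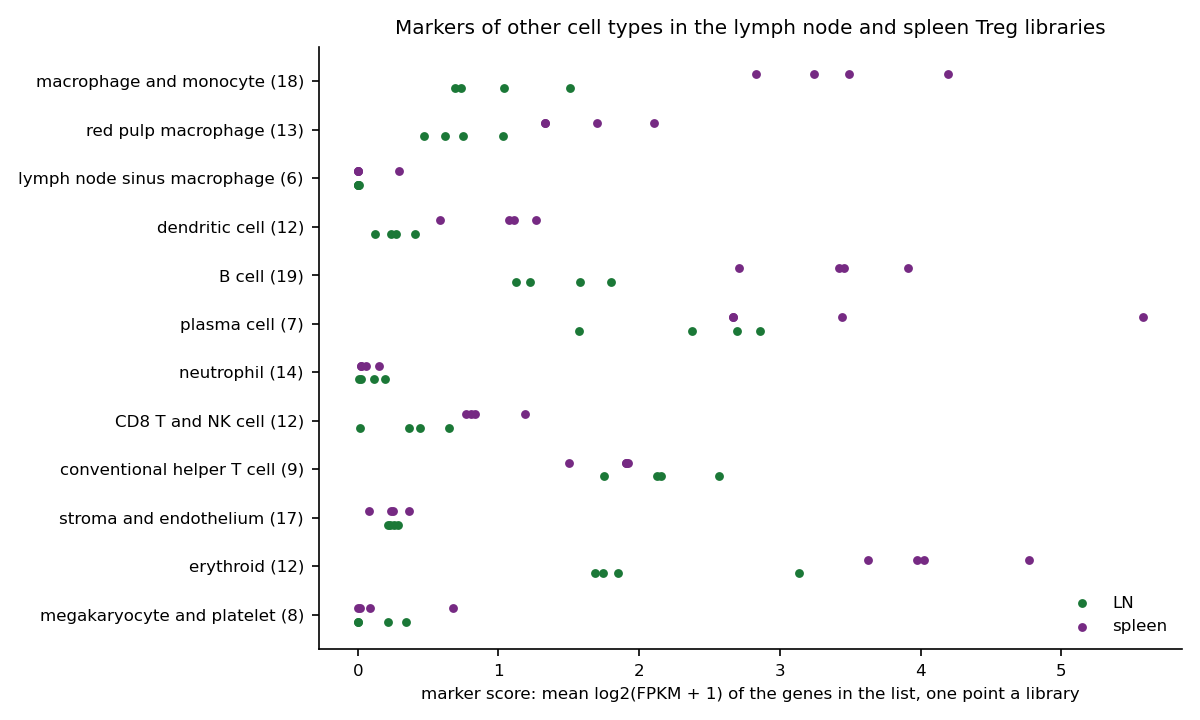
Marker score of each other-cell list (horizontal axis, mean log2(FPKM + 1) over the genes of the list in the table, whose number is in brackets) in the 4 lymph node (green) and 4 spleen (purple) libraries, one point for each library. The macrophage, red pulp macrophage, dendritic cell, B cell, erythroid and CD8 T and NK cell scores do not overlap between the organs, while the neutrophil, stroma and platelet scores overlap and reach at most 0.677.

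Other cell types gave few tested genes. Of 3 CD8 T and NK cell genes tested 0 passed in limma, with 0 higher and 1 lower at an unadjusted p of 0.05, and the score ran from 0.0126 to 0.651 in the lymph node libraries and from 0.769 to 1.19 in the spleen libraries. Cd8b1, the CD8 beta chain, was at 3.42, 5.46, 2.54 and 0.11 FPKM in lymph node and 27.4, 15.2, 52.6 and 0.587 FPKM in spleen, with overlap. Gzmm went the other way in value, at 3.28, 30.6, 0 and 0 FPKM in lymph node and 0, 0.0632, 3.43 and 7.72 FPKM in spleen. It also overlapped (0.43 ± 1.13, SE, adjusted p = 0.926). Of 6 genes of conventional helper T cells 0 passed in limma and 0 at an unadjusted p of 0.05, and Cd40lg was at 12.3, 9.56, 7.14 and 18.4 FPKM in lymph node and 14.4, 17.9, 6.32 and 1.95 FPKM in spleen. No neutrophil or platelet gene reached the filter, and the endothelial gene Pecam1 was the only stromal gene tested, at 15, 4.98, 6.53 and 9.18 FPKM in lymph node and 5.52, 1.46, 17.7 and 1.88 FPKM in spleen. The macrophage, red pulp macrophage, dendritic cell, B cell, erythroid and CD8 T and NK cell scores were thus all lower in every lymph node library than in any spleen library. The part of these cells in the other results below was not tested.

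Outside those lists, the chemokine Ccl5 was lower in lymph node Tregs. Ccl5, which attracts T cells and macrophages, was at 499.8, 103, 312 and 169.6 FPKM in lymph node and 1266, 1024, 809 and 1392 FPKM in spleen. The difference was -2.26 ± 0.40 (SE, adjusted p = 0.0447). Spleen Tregs were above lymph node Tregs in every pair of libraries, but the lymph node libraries spread widely, and the call was kept only without lymph node replicate 1 (highest adjusted p 0.109). Ccl5 is also made by CD8 T and NK cells, whose score, given above, was likewise lower in every lymph node library, and their part in this difference was not tested.

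Hsp90aa1, the inducible cytosolic HSP90 chaperone, was at 152, 158, 144 and 188 FPKM in lymph node and 379.9, 332, 348 and 399 FPKM in spleen. The organs differed by -1.19 ± 0.17 (SE, adjusted p = 0.0143). Each group was tight, and the call was kept with each library left out except lymph node replicate 3, without which the adjusted p was 0.0614. A processed copy, Gm12346, holds 46.7% of its 31-base words. Its constitutive paralog Hsp90ab1 was at 263, 297, 255 and 137 FPKM in lymph node and 425, 469, 482 and 521 FPKM in spleen and did not pass (-1.05 ± 0.23 (SE, adjusted p = 0.0785)), and Hspa8, the constitutive HSC70, had a difference of -0.29 ± 0.15 (adjusted p = 0.474).

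**Figure D3:**
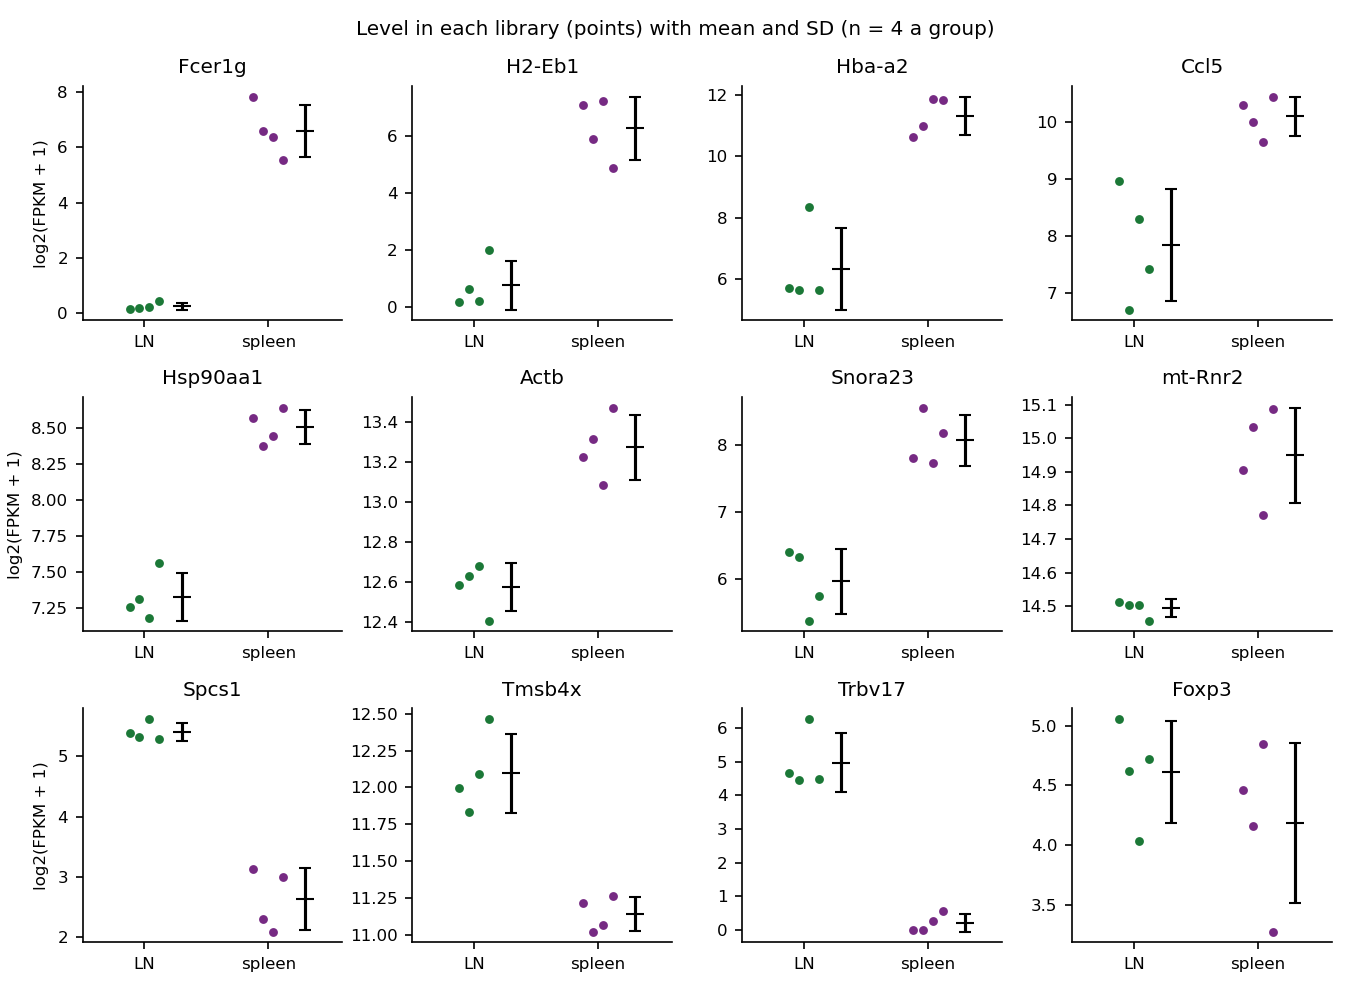
Level of 12 genes in each library (vertical axes, log2(FPKM + 1), scaled to each gene and not starting at 0), with lymph node libraries in green and spleen libraries in purple. Bars give the mean and SD of 4 libraries. The groups do not overlap in 11 of the genes, and Foxp3 overlaps.

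A few called genes were among the most abundant mRNAs of the cells, with small but even differences. Actb, cytoplasmic beta actin, was at 6155, 6334, 6560.4 and 5433 FPKM in lymph node and 9570.2, 10182, 8681 and 11351 FPKM in spleen. It differed by -0.70 ± 0.09 (SE, adjusted p = 0.00821). Tmsb4x, thymosin beta 4, which binds actin monomers, was at 4086, 3651, 4354 and 5659.8 FPKM in lymph node and 2374, 2078, 2148 and 2460.2 FPKM in spleen. The difference was 0.95 ± 0.13 (SE, adjusted p = 0.00966). The 2 genes lay in opposite directions, and both calls were kept whichever 1 library was left out. Other genes of actin and its partners, chosen after the values were seen, did not pass. Actg1, gamma actin, differed by -0.16 ± 0.16 (adjusted p = 0.761), Pfn1, profilin, by 0.30 ± 0.22 (adjusted p = 0.655) and Cfl1, cofilin, by -0.36 ± 0.28 (adjusted p = 0.693).

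Rps21, a protein of the small ribosomal subunit, was at 4702, 4473, 4940.4 and 4603 FPKM in lymph node and 6854, 7786, 6807 and 8803 FPKM in spleen. This gave a difference of -0.69 ± 0.09 (SE, adjusted p = 0.00821), and the call was kept whichever 1 library was left out. Rps7, another small subunit protein, was at 980.5, 985, 875 and 1040.2 FPKM in lymph node and 627, 664, 594 and 648 FPKM in spleen. It differed by 0.61 ± 0.12 (SE, adjusted p = 0.0472). Rps21 was lower in lymph node and Rps7 higher. Gm9493, a pseudogene that shares 83.7% of its 31-base words with Rps7, was also called, at 0.88 ± 0.16 (adjusted p = 0.0472), and the split of reads between them is uncertain. Eef1a1, the elongation factor that brings aminoacyl-tRNA to the ribosome, differed by 0.83 ± 0.15 (SE, adjusted p = 0.0447) and Cd52, a surface glycoprotein of lymphocytes, by 0.60 ± 0.11 (SE, adjusted p = 0.0447). When single libraries were left out Rps7 passed in no fit, Eef1a1 only without spleen replicate 1 and Cd52 only without spleen replicate 4. Their highest adjusted p was 0.129 for Rps7, 0.117 for Eef1a1 and 0.12 for Cd52.

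Spcs1, Sec11a and Psma2, which act in the making and breakdown of proteins, were higher in lymph node Tregs. Spcs1, a small subunit of the signal peptidase that cleaves leader peptides, was at 40.7, 39.1, 48.4 and 38 FPKM in lymph node and 7.79, 3.89, 3.25 and 7 FPKM in spleen. The difference was 2.78 ± 0.42 (SE, adjusted p = 0.017). Sec11a, a catalytic subunit of the same enzyme, was at 177, 256, 233 and 239 FPKM in lymph node and 83.2, 71.5, 43.6 and 125 FPKM in spleen. The log2 difference was 1.56 ± 0.30 (SE, adjusted p = 0.0493). The organs did not overlap for either gene. The other subunits, grouped with these after the values were seen, did not pass, with Sec11c at -0.07 ± 0.30 (adjusted p = 0.955), Spcs2 at 0.75 ± 0.35 (adjusted p = 0.421) and Spcs3 at 0.04 ± 0.65 (adjusted p = 0.988).

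Psma2, an alpha subunit of the proteasome core, was at 202, 119, 186 and 189 FPKM in lymph node and 88.2, 39.1, 42.9 and 56.3 FPKM in spleen. It differed by 1.65 ± 0.31 (SE, adjusted p = 0.0472). With 1 library left out, Spcs1 passed without each of the 4 spleen libraries but not without any lymph node library, Sec11a only without spleen replicate 4 and Psma2 only without spleen replicate 1. Their highest adjusted p was 0.0739 for Spcs1, 0.151 for Sec11a and 0.141 for Psma2.

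Pradc1, Kptn, Atp6v1g2 and Tnp2 were at moderate levels in lymph node and at or near 0 in spleen. Pradc1, a secreted protease-associated domain protein, was at 10.4, 18.5, 16.6 and 17.1 FPKM in lymph node and 1.57, 0, 0.0579 and 0 FPKM in spleen. The difference was 3.66 ± 0.56 (SE, adjusted p = 0.02). It overlaps Cct7 on the other strand, whose own difference was -0.35 ± 0.29 (adjusted p = 0.706). Kptn, kaptin, a part of the KICSTOR complex that restrains mTORC1, was at 6.59, 11.1, 12.8 and 12.9 FPKM in lymph node and 1.49, 0.0499, 0.0889 and 0.855 FPKM in spleen. The organs differed by 2.93 ± 0.56 (SE, adjusted p = 0.0482). Atp6v1g2, a subunit of the proton-pumping V-ATPase, was at 10.1, 14.6, 6.08 and 22.8 FPKM in lymph node and 0.283, 0, 0.194 and 1.3 FPKM in spleen. It differed by 3.25 ± 0.59 (SE, adjusted p = 0.0472). Tnp2, a transition protein best known from sperm, was at 19.7, 5.13, 12.1 and 21.3 FPKM in lymph node and 0, 0, 1.72 and 0.159 FPKM in spleen. The difference was 3.38 ± 0.63 (SE, adjusted p = 0.0472). In the fits that left out 1 library, Pradc1 passed without each spleen library and without lymph node replicate 1, Tnp2 only without spleen replicate 3, and Kptn and Atp6v1g2 in no fit. Their highest adjusted p was 0.0736 for Pradc1, 0.139 for Tnp2, 0.141 for Kptn and 0.125 for Atp6v1g2.

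Further genes lower in lymph node were Timm50, a receptor of the mitochondrial inner membrane import channel, at 10.5, 27.7, 16 and 4.53 FPKM in lymph node and 88.4, 52.5, 106 and 71.2 FPKM in spleen (-2.55 ± 0.49 (SE, adjusted p = 0.0493)), and Znhit2, a zinc finger protein, at 17.9, 14.8, 5.52 and 11.7 FPKM in lymph node and 51.3, 122, 40.2 and 69.1 FPKM in spleen (-2.39 ± 0.46 (SE, adjusted p = 0.0493)). Aplp1, a member of the amyloid precursor family, was at 4.59, 0.0211, 2.26 and 3.84 FPKM in lymph node and 48.2, 37.6, 13.8 and 39 FPKM in spleen (-3.40 ± 0.64 (SE, adjusted p = 0.0472)). Arf5, a small GTPase of the Golgi, was at 142, 158, 208 and 174 FPKM in lymph node and 274, 374, 370.4 and 341 FPKM in spleen (-0.996 ± 0.19, SE, adjusted p = 0.0493). All 4 were lower in each lymph node library than in any spleen library. When single libraries were left out, Timm50 passed only without lymph node replicate 2, Aplp1 only without spleen replicate 3, and Znhit2 and Arf5 in no fit, with highest adjusted p of 0.128 for Timm50, 0.135 for Aplp1, 0.139 for Znhit2 and 0.13 for Arf5.

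Among small RNAs Snora23 was lower in lymph node Tregs. Snora23 is an H/ACA small nucleolar RNA, of a class that guides the conversion of uridine to pseudouridine and ends in an ACA box. It lies within the gene Ipo7 on chr7:110046364-110046547, plus strand (GRCm38, GENCODE M21). Its sequence, with the ACA box in capitals, is shown because it was past the threshold whichever 1 library was left out.
Snora23: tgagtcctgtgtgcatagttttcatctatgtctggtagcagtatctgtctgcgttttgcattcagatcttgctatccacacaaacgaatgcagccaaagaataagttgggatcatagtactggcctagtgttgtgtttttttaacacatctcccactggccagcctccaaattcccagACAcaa
Snora23 was at 83.1, 79.2, 40.4 and 52.7 FPKM in lymph node and 223, 377, 211 and 289.7 FPKM in spleen. This gave a difference of -2.11 ± 0.29 (SE, adjusted p = 0.0118). The surrounding gene Ipo7 was at 1.09, 2.55, 2 and 5.86 FPKM in lymph node and 3.93, 5.65, 3.19 and 14.8 FPKM in spleen, and did not pass (-0.96 ± 0.63 (adjusted p = 0.615)). Whether the reads at Snora23 and the small RNA genes below came from the mature small RNA or from longer transcripts was not tested. The other called small nuclear and nucleolar RNAs were Gm22270 (-1.20 ± 0.23 (adjusted p = 0.0472)) and Gm23240 (-0.91 ± 0.17 (adjusted p = 0.0472)), both lower, and Gm23246 (3.85 ± 0.72 (adjusted p = 0.0472)), higher. Gm23246 lies wholly within Snhg1, which holds 100% of its 31-base words, so their reads cannot be told apart here. Gm22270 lies within Rpl5, whose own difference was 0.11 ± 0.14 (SE, adjusted p = 0.828). The closest copy of Gm22270, Gm22480, holds 19.6% of its 31-base words. The pseudogenes Gm10051 (-0.59 ± 0.11 (adjusted p = 0.0482)), lower, and Eif5al3-ps (2.84 ± 0.52 (adjusted p = 0.0472)), higher, and the uncharacterised A930005H10Rik (3.22 ± 0.63 (adjusted p = 0.0493)), higher, were also called. Of these 6, Gm23246 passed only without lymph node replicate 1 and A930005H10Rik only without spleen replicate 2 when 1 library was left out, and the other 4 in no fit.

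Mitochondrial transcripts are given by class, a grouping made after the values were seen. The 16S ribosomal RNA mt-Rnr2 was at 23396, 23242, 23250.3 and 22484 FPKM in lymph node and 30678, 33546, 27968 and 34822 FPKM in spleen. It differed by -0.45 ± 0.06 (SE, adjusted p = 0.0118), and the call was kept whichever 1 library was left out. The 12S ribosomal RNA mt-Rnr1 was at 3395, 3168, 3345 and 3255 FPKM in lymph node and 3819, 4461, 4005 and 4377 FPKM in spleen and did not pass (-0.34 ± 0.08 (SE, adjusted p = 0.0896)). In each case every lymph node library was below every spleen library. Ribosomal RNA of the mitochondrion took 5.10% ± 0.119 of FPKM in lymph node and 6.54% ± 0.418 in spleen (SD, n = 4 each, exact permutation p = 0.0286, adjusted 0.054).

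The proline transfer RNA mt-Tp, on chrM:15356-15422, minus strand, was the only mitochondrial transfer RNA called. Its sequence (GRCm38, GENCODE M21) has in capitals the anticodon, the middle 3 bases of a 7-base loop closed by 5 base pairs.
mt-Tp: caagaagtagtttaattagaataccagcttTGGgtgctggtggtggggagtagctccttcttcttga
It was at 228, 256, 249 and 390.4 FPKM in lymph node and 673, 535, 707 and 966 FPKM in spleen, a difference of -1.36 ± 0.22 (SE, adjusted p = 0.0301), and with 1 library left out it passed only without spleen replicate 2 or lymph node replicate 4 (highest adjusted p 0.0888). Of 17 mitochondrial transfer RNAs tested, 13 had a negative difference and 4 a positive one, with a median of -0.69. The FPKM of RNAs this short depends strongly on the correction for fragment length, which limits what their levels mean.

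Most protein-coding mitochondrial genes had the opposite sign. mt-Co1, subunit 1 of cytochrome c oxidase, was at 1205, 1307, 1258 and 1516 FPKM in lymph node and 889, 816, 841 and 798 FPKM in spleen, a difference of 0.66 ± 0.11 (SE, adjusted p = 0.0414), but it passed in no fit with 1 library left out (highest adjusted p 0.105). Of 9 such genes tested 8 had a positive difference, with a median of 0.34, and mt-Nd6, a complex I subunit, differed by 0.42 ± 0.13 (adjusted p = 0.183). Their share of FPKM was 2.06% ± 0.286 in lymph node and 1.52% ± 0.19 in spleen (SD, n = 4 each, exact permutation p = 0.0286, adjusted 0.054). Together the mitochondrial genome took 7.51% of FPKM in lymph node and 8.52% in spleen. As shares of one total these values are not independent of each other.

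The 5 largest differences toward lymph node among the called genes were in T cell receptor segments. Each T cell joins 1 variable and 1 joining segment of the alpha chain, and variable, diversity and joining segments of the beta chain. A segment's level can depend on how many sequenced cells use it and how much receptor RNA they hold, among other things. The segments were grouped by class after their values were seen. Of 16 Trbv (beta variable) segments tested 4 passed as higher in lymph node, 15 had a positive difference, and the median was 3.11. Of all genes tested, 0.232% passed as higher, and 4643 of 9053 had a positive difference.

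Trbv17 was at 24.5, 21.1, 76.9 and 21.3 FPKM in lymph node and 0, 0, 0.194 and 0.466 FPKM in spleen. The difference was 4.77 ± 0.58 (SE, adjusted p = 0.00629), and it passed in all 18 alternative fits. Trbv29 was at 31.5, 41.5, 6.72 and 23.9 FPKM in lymph node and 0.215, 0, 0 and 0 FPKM in spleen. The log2 difference was 4.44 ± 0.63 (SE, adjusted p = 0.0126), and the call was kept whichever 1 library was left out. Both segments entered the comparison through the lymph node libraries alone. With all spleen libraries listed at 0 or below 1 FPKM, the size of these differences depends on the pseudocount of 1. Trbv13-1 was at 22.6, 84.3, 147 and 41.1 FPKM in lymph node and 0, 0, 16.1 and 0.261 FPKM in spleen. It differed by 4.79 ± 0.93 (SE, adjusted p = 0.0493). Trbv13-3 was at 62.9, 21.1, 25.8 and 82.5 FPKM in lymph node and 0, 5.5, 0.213 and 1.79 FPKM in spleen. The organs differed by 4.28 ± 0.70 (SE, adjusted p = 0.0321). Spleen replicate 3 held Trbv13-1 and spleen replicate 2 held Trbv13-3 above the other spleen libraries. With 1 library left out Trbv13-1 passed only without spleen replicate 3 and Trbv13-3 only without spleen replicate 2, with highest adjusted p of 0.148 for Trbv13-1 and 0.0977 for Trbv13-3.

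Fewer beta segments were present in the spleen libraries, with replicate 3 closest to the lymph node libraries. Of the 19 Trbv segments in the table, 16, 16, 17 and 14 reached 1 FPKM in the lymph node libraries and 8, 6, 11 and 8 in the spleen libraries. The effective number of segments (the inverse of the sum of squared shares of Trbv FPKM) was 11.4, 10.5, 8.83 and 10.2 in lymph node and 2.14, 3.40, 7.88 and 4.36 in spleen. In spleen replicate 1, 66.1% of Trbv FPKM lay in Trbv15, in replicate 2 38.7% lay in Trbv15 and 35.2% in Trbv3, and in replicate 4 32.8% lay in Trbv19. In replicate 3 the largest shares were 20.4% in Trbv3 and 18.8% in Trbv30, so Trbv15 led replicates 1 and 2, and other segments led replicates 3 and 4. Summed Trbv FPKM was 874 ± 111 in lymph node and 338 ± 101 in spleen (SD, n = 4 each). Each of the 3 measures, added after the values were seen, gave an exact permutation p of 0.0286, adjusted 0.054. The constant gene Trbc2 was at 2995, 3229, 2870.5 and 3472 FPKM in lymph node and 2539, 1949.7, 2204 and 2449 FPKM in spleen and did not pass (0.46 ± 0.10 (SE, adjusted p = 0.0841)).

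**Figure D4:**
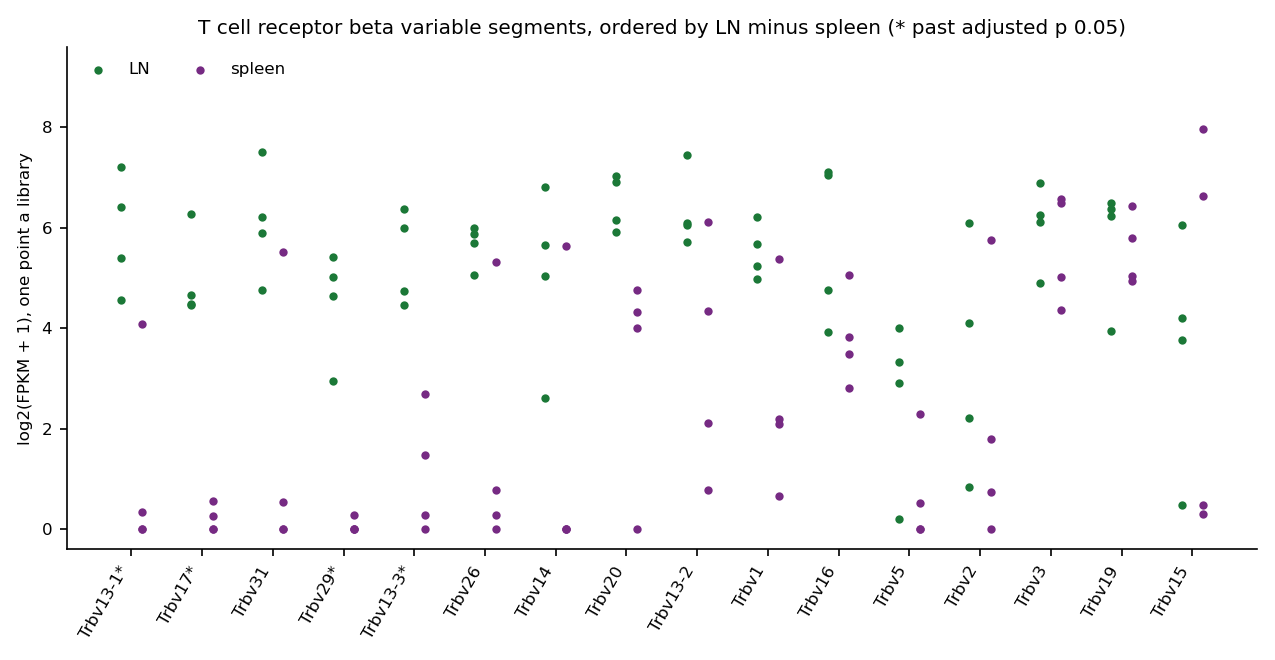
Level of each tested Trbv segment (vertical axis, log2(FPKM + 1)) in the 4 lymph node (green) and 4 spleen (purple) libraries, ordered by the difference between organs, with an asterisk at the 4 segments past an adjusted p of 0.05. Most segments are present in all lymph node libraries, while in spleen many points lie at 0 and Trbv15 is high in 2 libraries.

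The alpha chain gave 3 calls, all in joining segments, of which 30 were tested. Their sequences (GRCm38, GENCODE M21, chromosome 14, plus strand) carry in capitals the codons of the conserved motif phenylalanine, glycine, any residue, glycine. They are shown because the 3 differ in direction, Traj6 at chr14:54212688-54212749, Traj12 at chr14:54206553-54206610 and Traj18 at chr14:54200777-54200842.
Traj6: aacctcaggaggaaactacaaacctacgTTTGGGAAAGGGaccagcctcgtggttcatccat
Traj12: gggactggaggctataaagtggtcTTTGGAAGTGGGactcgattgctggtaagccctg
Traj18: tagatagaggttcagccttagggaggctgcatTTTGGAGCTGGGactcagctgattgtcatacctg
Traj6 was at 15.9, 19.9, 30 and 74.7 FPKM in lymph node and 0, 6.56, 0 and 0 FPKM in spleen, higher in lymph node by 4.19 ± 0.78 (SE, adjusted p = 0.0472). Traj12 was at 183, 320.1, 252 and 119 FPKM in lymph node and 681, 618, 616 and 1224 FPKM in spleen. It differed by -1.87 ± 0.31 (SE, adjusted p = 0.0344). Traj18, the joining segment of the invariant receptor of NKT cells, was at 926, 1065, 493 and 1080.1 FPKM in lymph node and 1604, 3255, 2178 and 4073 FPKM in spleen. The difference was -1.61 ± 0.30 (SE, adjusted p = 0.0472). The lower pair was abundant in all 8 libraries, whereas Traj6 was listed at 0 in 3 spleen libraries. As shares of all Traj FPKM, Traj12 was at 7.07, 10.5, 12.1 and 4.18% in lymph node and 15.1, 9.76, 11.6 and 13% in spleen, and Traj18 at 35.8, 34.9, 23.6 and 37.8% and 35.6, 51.4, 40.9 and 43.4%. Both shares overlapped between the organs. In the fits that left out 1 library, Traj6 passed only without spleen replicate 2, Traj12 without spleen replicate 3 or lymph node replicate 2 and Traj18 without spleen replicate 1, with highest adjusted p of 0.139 for Traj6, 0.0856 for Traj12 and 0.103 for Traj18. Of 12 Trav segments tested 0 passed in limma (2 higher and 0 lower at an unadjusted p of 0.05), and of 13 Trbj segments 0 passed (6 higher and 0 lower). Segments this short share the limit on FPKM given for the transfer RNAs. The alpha constant gene Trac was at 961, 860, 654 and 694 FPKM in lymph node and 595, 304, 582 and 276 FPKM in spleen. Traj18 exceeded it in every spleen library, so the Traj levels cannot be read as the number of cells that use a segment.

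The 20 pathway lists held 5 called genes in all, Ccl5, Hsp90aa1, mt-Co1, Rps7 and Rps21. The remaining results are list counts with some of the genes of smallest p, none of which passed. The lists were drawn up with earlier results of these data known. Of all 9053 genes tested, 4643 were positive and 4410 negative. At an unadjusted p of 0.05 in limma, 6.70% of all genes were higher and 5.49% lower. The resting and central Treg list had 14 of 19 tested genes positive, a median of 0.38, 0 called in limma, and 4 higher and 0 lower at an unadjusted p of 0.05. Without overlap, 21.1% of its genes were higher and 0% lower. Of all 9053 genes tested, 362 were higher without overlap and 377 lower. Igfbp4, which binds insulin-like growth factors and is found in naive T cells, was at 39.3, 36.3, 58.9 and 44 FPKM in lymph node and 15.3, 9.59, 10.9 and 14.2 FPKM in spleen (1.75 ± 0.36 (SE, adjusted p = 0.0557)). Ms4a4b, a membrane protein of naive and memory T cells, differed by 0.67 ± 0.14 (adjusted p = 0.0688). Neither gene overlapped between organs, and both missed the threshold.

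The effector Treg list had 26 of 40 tested genes negative and a median of -0.45, with Ccl5 the 1 gene called. At an unadjusted p of 0.05, 3 of its genes were higher and 10 lower, against 6.70% and 5.49% of all genes tested. Of its genes, 17.5% were lower in every lymph node library than in any spleen library, against 4.16% of all genes tested. S100a6, a calcium-binding protein of activated T cells, was at 527, 418, 504 and 335 FPKM in lymph node and 1002, 707, 642 and 1038 FPKM in spleen (-0.91 ± 0.20 (SE, adjusted p = 0.0768)). Lag3, an inhibitory receptor for MHC class II, was at 0.657, 6.1, 0.952 and 0.0545 FPKM in lymph node and 7.73, 8.69, 15.7 and 13.4 FPKM in spleen (-2.43 ± 0.67 (SE, adjusted p = 0.152)). Icos, a costimulatory receptor of effector Tregs, had the other sign and was at 416, 397, 470.5 and 493 FPKM in lymph node and 387, 268, 223 and 319 FPKM in spleen (0.59 ± 0.19 (SE, adjusted p = 0.217)). In the Treg core list, Ctla4, the inhibitory receptor for CD80 and CD86, was at 47.1, 55, 34.8 and 48.4 FPKM in lymph node and 2.59, 11.9, 13.9 and 40 FPKM in spleen, with overlap (1.85 ± 0.62 (SE, adjusted p = 0.242)), and Socs2, a suppressor of cytokine signalling, differed by 1.38 ± 0.34 (adjusted p = 0.11).

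Homing receptors did not differ past the threshold. Of 36 tested, 0 were called in limma, 2 were higher and 4 lower at an unadjusted p of 0.05, and the median was -0.12. Gcnt1, an enzyme that builds selectin ligands, was at 14.3, 22.7, 16.5 and 19 FPKM in lymph node and 0.0322, 5.92, 7.24 and 0.0185 FPKM in spleen (2.76 ± 0.76 (SE, adjusted p = 0.152)), and Itga4, the integrin alpha 4 chain, differed by -1.30 ± 0.44 (adjusted p = 0.239). In the retinoic acid and TGF-beta list, 19 genes were tested, 0 called, and 3 were higher and 4 lower at an unadjusted p of 0.05. Tgfbr1, the type I TGF-beta receptor, was at 38.9, 50.1, 50.7 and 41.9 FPKM in lymph node and 26.8, 14.4, 7.15 and 6.69 FPKM in spleen (1.85 ± 0.46 (SE, adjusted p = 0.116)), and Dhrs3, a retinal reductase induced by retinoic acid, was at 0.388, 0.265, 0.499 and 0 FPKM in lymph node and 0.501, 44.5, 13.1 and 7.34 FPKM in spleen (-2.89 ± 0.89 (SE, adjusted p = 0.196)).

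In the signalling lists Hsp90aa1 was the only gene called. Lta, lymphotoxin alpha, was at 62.2, 63.8, 45.1 and 70.6 FPKM in lymph node and 0.877, 3.88, 6.03 and 24.5 FPKM in spleen, without overlap, and just missed the threshold (3.25 ± 0.67 (SE, adjusted p = 0.0558)). Nfkb2, of the same list as Lta, had the other sign (-1.15 ± 0.47 (SE, adjusted p = 0.349)), with overlap. The T cell receptor and NF-kB list as a whole had 0 of 27 called, 2 higher and 2 lower at an unadjusted p of 0.05 and a median of 0.04. The immediate early and heat shock list had Hsp90aa1 called of 35, 1 gene higher and 8 lower at an unadjusted p of 0.05, 23 negative genes and a median of -0.30. Of the 35 genes, 7 were lower in every lymph node library than in any spleen library, against 4.16% of all genes tested. Among them, and chosen after the values were seen, Jund, a subunit of the transcription factor AP-1, was at 50.5, 34.4, 51.3 and 28.3 FPKM in lymph node and 83.7, 104, 125 and 97.1 FPKM in spleen (-1.32 ± 0.30 (SE, adjusted p = 0.0791)). Hspa5, the chaperone BiP of the endoplasmic reticulum, was at 40, 34.3, 38 and 43.2 FPKM in lymph node and 131, 151, 80.9 and 61.3 FPKM in spleen (-1.34 ± 0.33 (SE, adjusted p = 0.113)). Jun, Junb, Nr4a2 and Hsp90ab1 were also without overlap, and none of these passed after adjustment. The interferon list had 0 of 31 called, 2 higher and 1 lower at an unadjusted p of 0.05, with Gbp2, an interferon-induced GTPase, at 64.2, 37.2, 80.1 and 47.5 FPKM in lymph node and 21.8, 17.9, 17.1 and 20.9 FPKM in spleen (1.46 ± 0.35 (SE, adjusted p = 0.101)).

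No nuclear gene of the metabolic lists was called. Of 22 glycolysis genes 0 were called, with 1 higher and 1 lower at an unadjusted p of 0.05. Ldhb, the lactate dehydrogenase B chain, was at 68.5, 106, 67.5 and 99.3 FPKM in lymph node and 4.42, 10.5, 41.3 and 22.3 FPKM in spleen (2.43 ± 0.56 (SE, adjusted p = 0.0905)), and Pkm, the muscle-type pyruvate kinase, differed by -0.62 ± 0.19 (adjusted p = 0.201). Of 21 fatty acid oxidation genes 0 were called (1 higher and 1 lower at an unadjusted p of 0.05), of 14 lipid uptake and storage genes 0 (3 and 2), and of 26 cholesterol and fatty acid synthesis genes 0 (1 and 0). Dgat1, which makes triglyceride, was at 19.1, 1.96, 7.26 and 18.8 FPKM in lymph node and 54.2, 25.5, 42.4 and 56.5 FPKM in spleen (-2.14 ± 0.61 (SE, adjusted p = 0.161)). Abhd5, also of the lipid storage list, had the other sign (2.21 ± 0.69 (SE, adjusted p = 0.203)), with overlap. Among 64 nuclear genes of the respiratory chain 0 were called, while 16 were higher and 1 lower at an unadjusted p of 0.05, 44 were positive and the median was 0.21. Of all genes tested, 6.70% were higher and 5.49% lower at this p, and 4643 of 9053 were positive. Uqcrb, a complex III subunit, was at 118, 79.7, 143 and 138 FPKM in lymph node and 46.7, 68.4, 29.4 and 53.9 FPKM in spleen (1.28 ± 0.32 (SE, adjusted p = 0.121)).

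The cytoplasmic ribosomal protein list had 75 genes tested, Rps7 called higher and Rps21 lower, 22 higher and 8 lower at an unadjusted p of 0.05, and a median of 0.13. Over all genes tested, 6.70% were higher and 5.49% lower at this p. Without overlap, 21.3% of its genes were higher and 8% lower. Of all 9053 genes tested, 362 were higher without overlap and 377 lower. The cell cycle list had 0 of 39 called, 6 higher and 1 lower at an unadjusted p of 0.05, and a median of 0.39. H2afz, a histone variant, differed by 0.63 ± 0.18 (adjusted p = 0.163). Kif11 had the other sign (-1.96 ± 0.66 (SE, adjusted p = 0.242)), with overlap. The cytokine receptor list had 0 of 28 called (1 higher and 2 lower at an unadjusted p of 0.05), the checkpoint and costimulatory list 0 of 25 (3 and 2), and the survival and death list 0 of 17 (1 and 1). Fas, the death receptor, was at 23.2, 10.9, 39.2 and 14.6 FPKM in lymph node and 11.4, 1.58, 4.18 and 0.145 FPKM in spleen (2.47 ± 0.74 (SE, adjusted p = 0.177)). Bak1, of the same list, had the other sign (-1.24 ± 0.45 (SE, adjusted p = 0.274)). Both genes overlapped between the organs.

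**Figure D5:**
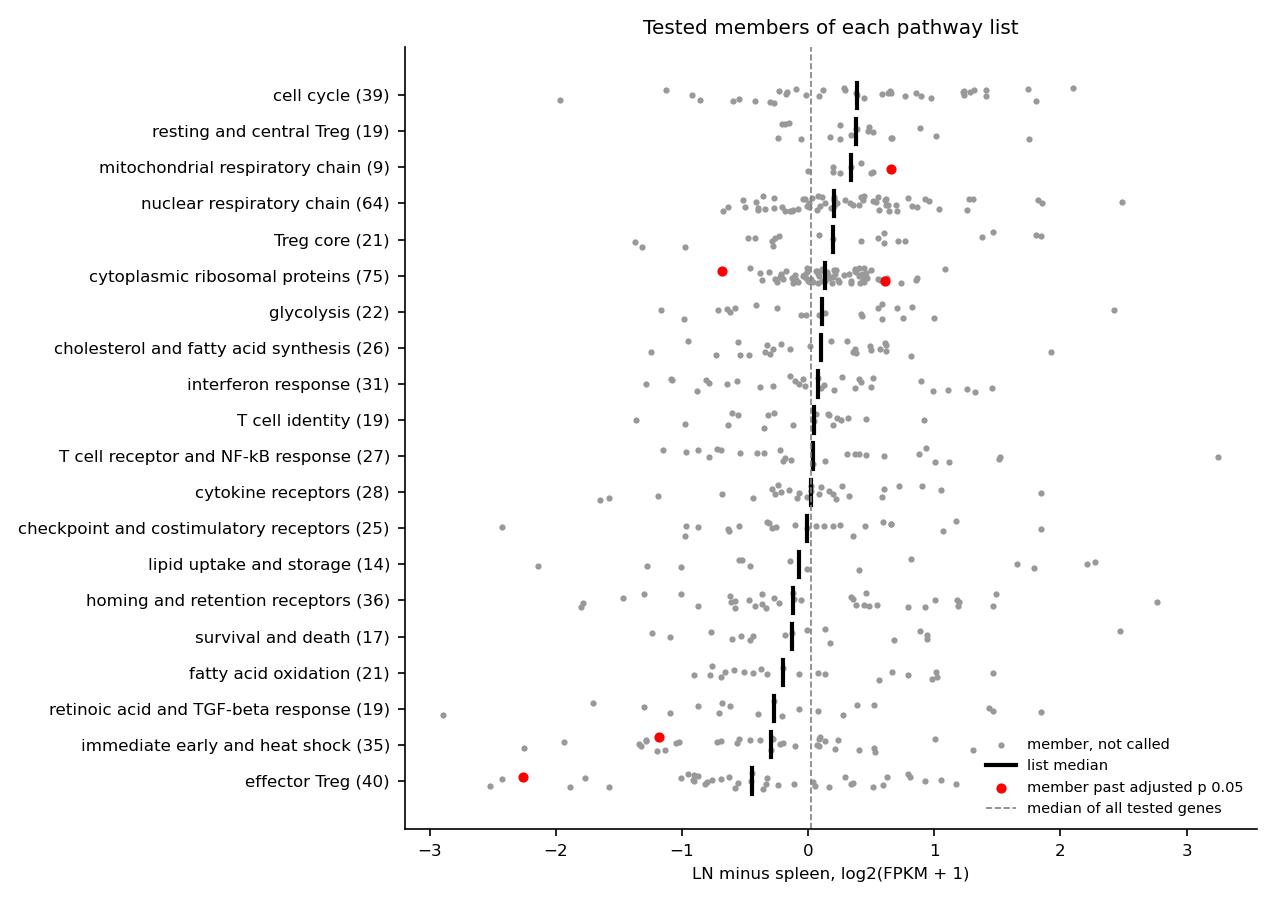
Difference between lymph node and spleen Tregs (horizontal axis, log2(FPKM + 1)) for every tested member of the 20 pathway lists, with the number tested in brackets. Black bars are list medians, the dashed line is the median of all genes, and red points are the 5 members past an adjusted p of 0.05, with medians from -0.45 (effector Treg) to 0.39 (cell cycle).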

How the data were processed

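RNA-seq of Tregs was compared between 4 lymph node and 4 spleen libraries of WT (Foxp3-YFP+) mice. The deposited values are FPKM per gene, which the authors made with Cufflinks 2.2.1 after TopHat2 2.1.1 and Bowtie2 2.2.9 on mm10, with Trimmomatic, Cuffdiff and DESeq2 also named, per the submitters' processing notes. The file headers do not name the unit, and the annotation, strand setting and tool order were not given in the sources used here. FPKM are not counts, so genes with at least 1 FPKM in 3 or more of the 8 libraries (9053) were tested with limma 3.58.1 (robust, trend) in R 4.3.3 on log2(FPKM + 1), without covariates, with Benjamini-Hochberg adjustment over all genes tested and a threshold of 0.05. The log2 differences understate changes of low genes.

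The 17 library measures were tested with exact two-sided permutation tests (scipy 1.17.1, Python 3.11.15), for which 4 against 4 allows no p below 0.0286. Depth was estimated from whole-read steps among low values, of which 94.2% to 96.0% came out whole within 0.1 of a read. Names, types and sequences came from GENCODE M21 on GRCm38, which matched 22201 of 22255 identifiers, and other list symbols were not analysed here.

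Genes and 32 lists (20 pathway, 12 of other cell types) were chosen with earlier results of these data known. The genes named were Foxp3 and Cd36, up to 12 each way with the largest differences among called genes with a mean of 10 FPKM or more and no overlap, up to 8 more each way in no list of other cells, the called members (up to 4) and 2 smallest p of each pathway list, the 2 highest and up to 3 called genes of each other list, and 2 small or mitochondrial RNAs each way. Predicted genes, pseudogenes and receptor segments were left out of the largest differences. Further genes in the text, the receptor segments, the mitochondrial classes, the signal peptidase and actin groups and overlapping genes were chosen after their values were seen. The alternatives were other pseudocounts, filters, scalings and limma options, a fit with 3 tumor libraries added, a replicate block and leaving out each library. A single called gene is not reported here, but counts in the totals.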

Additional observations from a re-analysis of the deposited data

Results flagged for a closer look

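A sample far from the other 3 of its group, by Dixon's test at the 95% level, was looked for in 276 groups of 4 values (17 library measures, 12 marker scores and genes named by rule or called), and 47 were found. Chance flags about 1 in 20 groups, and groups with values of 0 in the other libraries are flagged easily.

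Among shares of FPKM, the mitochondrial genome was at 7.95% in lymph node replicate 4, immunoglobulin genes were at 1.55% in spleen replicate 3 and globin genes at 0.234% in lymph node replicate 3. Among marker scores, sinus macrophages were at 0.00704 in lymph node replicate 2 and 0.291 in spleen replicate 1, CD8 T and NK cells at 1.19 in spleen replicate 3, helper T cells at 1.5 in spleen replicate 4, erythroid genes at 3.14 in lymph node replicate 3 and megakaryocytes at 0.677 in spleen replicate 1.

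In lymph node replicate 1 the genes that stood apart were Kif11 at 1.63 and Pf4 at 3.62 FPKM. In lymph node replicate 2 the genes that stood apart were C1qb at 24.5, H2-Ab1 at 45.4, Apoe at 2.5, Ctsh at 0.0611, Lag3 at 6.1, S100a8 at 1.83 and Gzmm at 30.6 FPKM. In lymph node replicate 3 the genes that stood apart were Hba-a2 at 323, Hba-a1 at 353, Hbb-bs at 352, Kdr at 0.0628, Trbv17 at 76.9 and C1qa at 0.849 FPKM. In lymph node replicate 4 the genes that stood apart were H2-Eb1 at 2.99, mt-Rnr2 at 22484, Scd1 at 3.08, Siglech at 10.9, Batf3 at 0.068 and Mmp9 at 5.37 FPKM. In spleen replicate 1 the genes that stood apart were Pradc1 at 1.57, Timd4 at 2.06, Siglec1 at 0.0743, Kdr at 6.09, Pf4 at 39, Trbv29 at 0.215 and Cd74 at 55.9 FPKM. In spleen replicate 2 the genes that stood apart were Scd1 at 15.8, Ppbp at 0.0751 and Traj6 at 6.56 FPKM. In spleen replicate 3 the genes that stood apart were Tnp2 at 1.72, Igkc at 5963 and Trbv13-1 at 16.1 FPKM. In spleen replicate 4 the genes that stood apart were Itga4 at 30.2, Abhd5 at 4.0005, Dapl1 at 45.1 and Traj12 at 1224 FPKM. 

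The causes of these values were not tested.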

How the results depend on the processing

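The count of 55 genes (21 list members) was between 39 and 58 under other pseudocounts, a filter at 5 FPKM, both scalings, the 11-library fit and the fit without the robust option. It was 5 (3 list members) without a filter, where 14451 genes were tested, and 30 (13) with array weights. With 1 library left out it was 16 to 38 (8 to 11 list members), and the fewest, 16, came without lymph node replicate 3. A smaller group was fitted each time. The share of calls that were higher in lymph node was 38.2%, 45.5% and 46.3% under the scalings, which moved the median of all genes by under 0.1. No called gene changed sign in any of the 18 fits. Fcer1g, Tyrobp and Trbv17 passed in all of them. The replicate block, with the library numbers as pairs, gave 20 genes (9 list members), 18 of them among the 55. Same-numbered libraries did not deviate together (r from -0.0236 to 0.00111), and not every library correlated best with its own number, so the numbers give no pairing. Foxp3 stayed above the threshold in every fit. The nuclear small RNA measure pools small nuclear, small nucleolar and other small RNA genes. As a share of all FPKM it gave an exact permutation p of 0.0571 (adjusted 0.0747). After scaling to protein-coding genes its exact p was 0.0286, with a log2 ratio of -0.24. With 1 library left out, no library measure can pass, since 3 against 4 allows no p below 0.0571, and the log2 ratio ranged from -5.86 to -3.42 for globins, from -2.296 to -1.004 for immunoglobulins and from -0.21 to -0.16 for the mitochondrial genome. The measures added after seeing the data were not rerun this way. Depth limits low genes, as 3 reads over 1 kb are 0.109 to 0.245 FPKM.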
